A study of Homo sapiens with 6 samples.

Results

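The inner mitochondrial membrane carries the last enzymes of oxidative phosphorylation: complex III (ubiquinol-cytochrome c reductase), complex IV (cytochrome c oxidase) and complex V (ATP synthase). The 55 genes described here are the nuclear-encoded subunits of these complexes, the electron carrier cytochrome c, the ATP synthase inhibitor ATP5IF1, and assembly factors of complexes III and IV. They were taken by name from the 28395 gene rows of the count files, through the NCBI Gene ID of each row, and all 55 were found. Of these, 39 are subunits, carrier or inhibitor, and 16 are assembly factors. NDUFA4, a subunit of complex IV, stands in the RefSeq table under the symbol COXFA4.

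The samples were 3 libraries of HCT116 cells given 50 nM TR-107 for 24 h and 3 libraries of HCT116 cells given the vehicle, 0.1% DMSO, for 24 h. HCT116 is an established human colorectal cancer line, and TR-107 is a compound that activates ClpP, the proteolytic part of a matrix protease of the mitochondrion. The comparison asks how transcripts of these complexes differ between cells given TR-107 and cells given the vehicle. RNA counts do not measure the activity of ClpP. It covers 1 cell line, 1 dose and 1 time. The submitters describe biological replicates without stating how cultures were kept apart, so every p-value reflects only the spread between libraries.

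Libraries held 17264039 to 23708135 counts. All 6 epithelial markers looked for (EPCAM, CDH1, KRT8, KRT18, KRT19 and CLDN7) were above 10 CPM in every library. Their sum was 5962 to 6117 CPM in TR-107 libraries and 5320 to 5362 CPM in DMSO libraries. Of the 3 leukocyte markers, PTPRC and CD3E had no count in any library and LYZ reached at most 0.233 CPM in TR-107 libraries and 0 in DMSO libraries, and the 3 endothelial markers summed to at most 0.438 CPM in TR-107 libraries and 0.589 CPM in DMSO libraries. The 4 fibroblast markers summed to 16.2 to 18.2 CPM in TR-107 libraries and 12.9 to 16.3 CPM in DMSO libraries, nearly all of it COL1A1, and DCN and LUM had no count. The sum of the epithelial markers was thus higher in TR-107 libraries without overlap, and its part in the results below was not tested. By marker, CDH1, KRT18, KRT19 and CLDN7 were higher without overlap. The groups overlapped for EPCAM, at 385 to 402 CPM in TR-107 libraries and 368 to 396 CPM in DMSO libraries. They also overlapped for KRT8, at 2654 to 2771 CPM in TR-107 libraries and 2611 to 2685 CPM in DMSO libraries. Over all 13767 genes tested, 31.5% lay wholly above.

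As background, complex III passes electrons from ubiquinol to cytochrome c, complex IV passes them from cytochrome c to oxygen, and both move protons out of the matrix. Complex V lets protons back in through a ring of c subunits in the membrane and uses that flow to make ATP in its F1 head in the matrix. Each complex is a mosaic: the mitochondrial genome encodes cytochrome b of complex III, the catalytic core of complex IV, and the a and A6L subunits of complex V, while nuclear genes encode all other subunits. Assembly factors are not part of the finished enzyme; they insert copper, heme and iron-sulfur cofactors and hold subunits until they are built in. Cells of nearly all tissues express these genes, and several small subunits have tissue-specific copies.

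The c subunit is encoded by a set of 3 nuclear genes, ATP5MC1, ATP5MC2 and ATP5MC3, which make the same mature protein from different precursors. Because these genes moved in different directions, their coding sequences are shown for the last 77 codons, the stretch over which the encoded amino acids are identical (GENCODE 29 transcripts on GRCh38, coding strand, introns removed, without the stop codon). Capitals mark positions at which the 3 genes do not all have the same base. The coding stretch of ATP5MC1 lies between bases 48895216 and 48895766 of chromosome 17 on the plus strand, that of ATP5MC2 between 53665317 and 53669266 of chromosome 12 on the minus strand, and that of ATP5MC3 between 175178291 and 175179175 of chromosome 2 on the minus strand.
ATP5MC1: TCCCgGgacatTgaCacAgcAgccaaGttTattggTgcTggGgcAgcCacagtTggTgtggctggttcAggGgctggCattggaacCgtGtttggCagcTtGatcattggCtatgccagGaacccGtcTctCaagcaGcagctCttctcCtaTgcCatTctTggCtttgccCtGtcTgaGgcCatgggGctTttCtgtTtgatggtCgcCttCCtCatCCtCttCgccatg
ATP5MC2: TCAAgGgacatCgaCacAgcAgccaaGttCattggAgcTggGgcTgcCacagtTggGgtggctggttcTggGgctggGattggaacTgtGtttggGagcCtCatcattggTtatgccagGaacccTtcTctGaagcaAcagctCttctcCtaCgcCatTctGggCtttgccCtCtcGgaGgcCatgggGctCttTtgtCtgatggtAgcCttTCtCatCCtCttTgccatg
ATP5MC3: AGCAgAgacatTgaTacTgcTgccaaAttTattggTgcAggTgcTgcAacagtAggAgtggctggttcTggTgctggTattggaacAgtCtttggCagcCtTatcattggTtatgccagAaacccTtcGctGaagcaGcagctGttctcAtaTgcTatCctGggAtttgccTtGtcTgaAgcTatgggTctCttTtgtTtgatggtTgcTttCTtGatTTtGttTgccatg
Over these 231 bases ATP5MC1 and ATP5MC2 had 88.3% of bases the same and differed at 27, while ATP5MC3 differed from each of the others at 46 bases, with 80.1% the same. The longest run without a difference was 17 bases, for ATP5MC1 with ATP5MC2 and for ATP5MC2 with ATP5MC3. Ahead of the shared stretch stand 59 codons in ATP5MC1, 64 in ATP5MC2 and 65 in ATP5MC3, which encode import sequence.

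After 24 h in TR-107, most transcripts of complexes III and V were lower than in DMSO, most nuclear subunits of complex IV were not called changed, and 3 genes were higher: the complex III factor TTC19, the c-subunit gene ATP5MC2 and the complex IV factor SURF1. Of the 55 genes, 53 passed the filter on low counts and were tested. With edgeR's quasi-likelihood test at an adjusted p of 0.05, 36 of the 53 were lower, 3 were higher and 14 were not called. Over all 13767 genes tested, 28.6% were called lower, 29.2% higher and 57.8% in either direction. The median log2 fold change (TR-107 over DMSO) was -0.21 over the 53 genes and 0.01 over all genes tested. In bulk RNA, a lower level per cell and fewer cells that express a gene cannot be told apart.

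**Figure D1:**
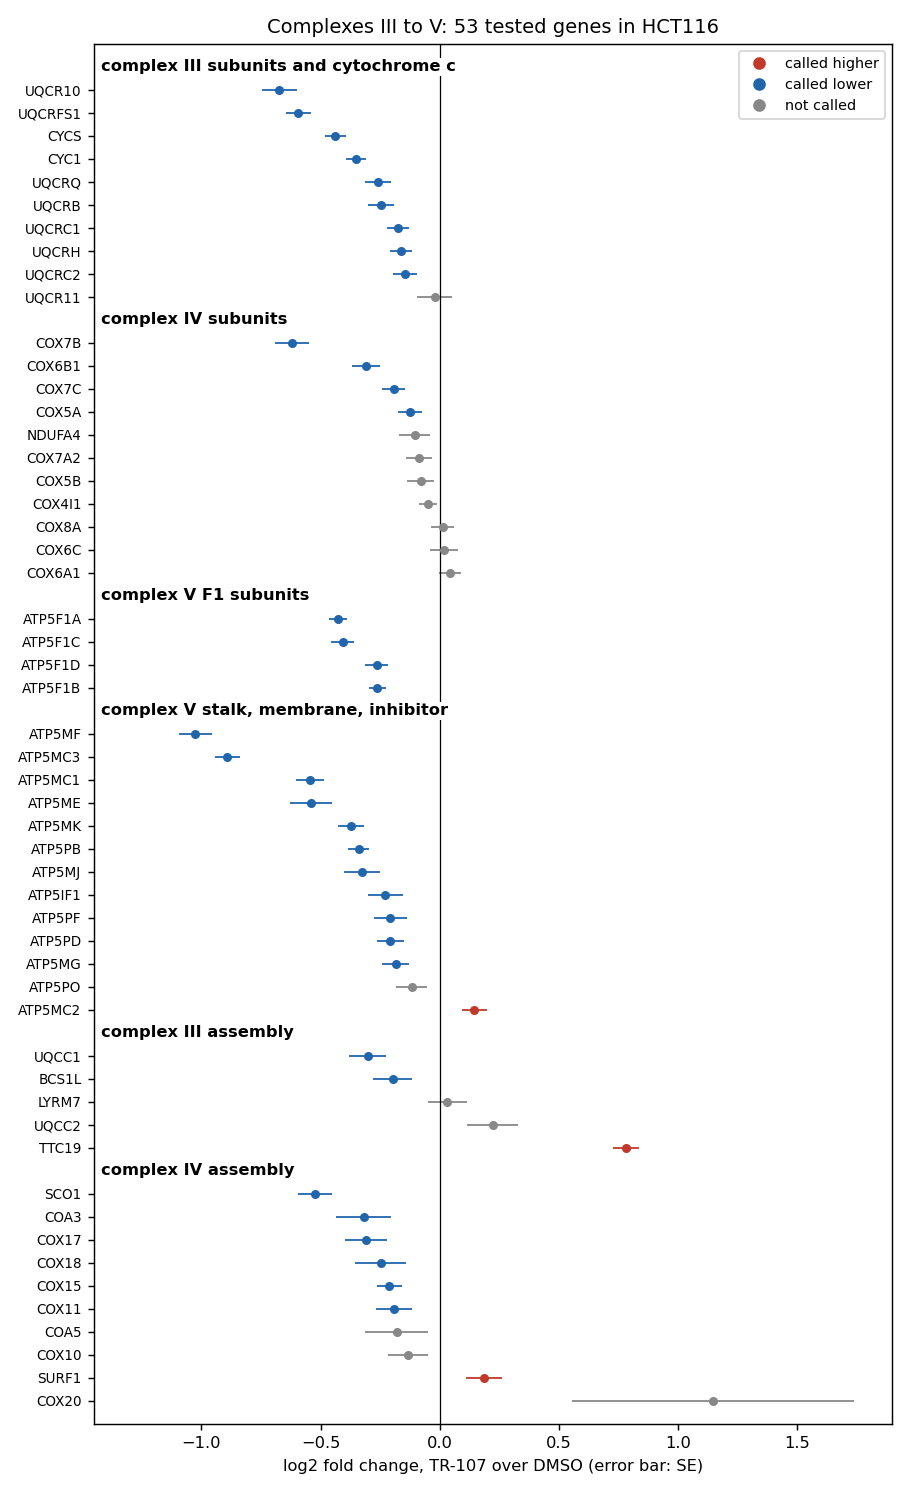
Log2 fold change, TR-107 over DMSO, of each tested gene with its SE (n = 3 libraries a group), grouped by role; red points were called higher, blue points lower and grey points not called. Complexes III and V lie mostly left of 0, most subunits of complex IV lie close to 0, and TTC19 stands to the right at 0.78.

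The changes were small for most of these genes. Only 5 of the 36 lower genes were at least 1.5-fold lower (ATP5MF, ATP5MC3, UQCR10, COX7B and UQCRFS1), and over all genes tested 10.5% were called and at least 1.5-fold lower. TTC19 was the only one of the 3 higher genes at least 1.5-fold higher, a size that 13.7% of all genes tested passed. The other 33 called genes differed by less than 1.5-fold. In 38 of the 53 genes every TR-107 library lay below every DMSO library, in 3 every TR-107 library lay above, and in 12 the groups overlapped; over all genes tested, 30.9% lay wholly below and 31.5% wholly above. Summed over all 55 genes, the level was 6245.5 ± 60.6 CPM in TR-107 libraries and 7406 ± 14.3 CPM in DMSO libraries (SD, n = 3 each), a ratio of 0.843.

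**Figure D2:**
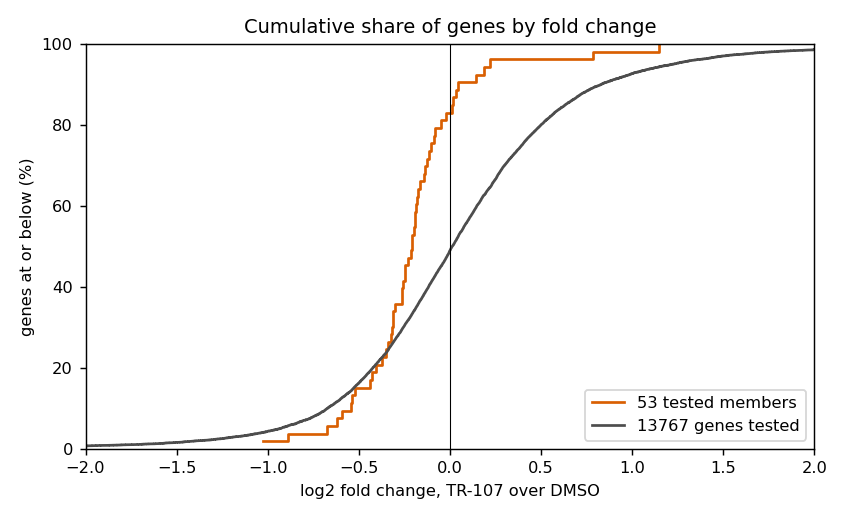
Cumulative share of genes (in %) at or below each log2 fold change, TR-107 over DMSO, for the 53 tested genes of complexes III to V and for all 13767 genes tested; the axis ends at 2 on either side. The curve of the 53 genes runs above that of all genes over most of the range, with a median of -0.21 against 0.01, and below it in the low tail.

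Promoter windows help to place these genes, whose control is known to involve the factors NRF1, the ETS family with GABP, and YY1. RefSeq windows (GRCh38.p14, 250 bases before to 50 after the start) were available for 46 of the 55 genes. The 150 bases before the start are shown for 5 genes. TTC19 is the gene with the largest called rise. UQCRFS1 and ATP5F1C, with an NRF1 match, and SCO1 and COX6B1, with an ETS match, were picked from the genes called lower. Each is written 5′ to 3′ on the gene's own strand, and capitals mark the match. They lie at chr17:15999674-15999823, chr19:29213152-29213301, chr10:7788027-7788176, chr17:10697534-10697683 and chr19:35648173-35648322.
TTC19: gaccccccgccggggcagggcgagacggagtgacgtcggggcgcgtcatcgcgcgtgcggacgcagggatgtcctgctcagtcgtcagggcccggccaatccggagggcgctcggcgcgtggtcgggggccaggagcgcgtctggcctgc
UQCRFS1: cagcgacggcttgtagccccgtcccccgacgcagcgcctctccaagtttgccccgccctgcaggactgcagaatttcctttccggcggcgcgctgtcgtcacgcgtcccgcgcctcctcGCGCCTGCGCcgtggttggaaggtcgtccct
ATP5F1C: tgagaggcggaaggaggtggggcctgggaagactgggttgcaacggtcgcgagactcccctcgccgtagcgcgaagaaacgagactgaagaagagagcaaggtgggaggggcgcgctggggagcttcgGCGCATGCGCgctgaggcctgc
SCO1: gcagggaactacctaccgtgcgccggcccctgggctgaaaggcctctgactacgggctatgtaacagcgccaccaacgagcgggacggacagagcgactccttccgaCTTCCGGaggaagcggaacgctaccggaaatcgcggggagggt
COX6B1: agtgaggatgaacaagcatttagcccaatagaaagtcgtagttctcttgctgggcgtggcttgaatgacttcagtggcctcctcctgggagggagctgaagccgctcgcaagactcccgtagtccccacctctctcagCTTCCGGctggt
The NRF1 match begins 31 bases before the start of UQCRFS1 and 22 before that of ATP5F1C, on the strand shown. The ETS match begins 43 bases before the start of SCO1 and 12 before that of COX6B1, and its letters read on the opposite strand in both. None of the 4 motifs searched was found in the TTC19 window shown. Because matches were picked from genes called lower, these examples do not show how matches divide by call. In the whole window, ETS letters were also found for SURF1, called higher, and for COX4I1 and COX6A1, not called. NRF1 letters were also found for ATP5PO and UQCR11, not called.

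The motifs were searched as exact letters on both strands of the whole window. GCGC followed by any 2 bases and again GCGC, an NRF1 motif, was found in 12 of the 46 windows (26.1%), against 18.2% of the 10794 tested genes with a window and 9.98% of all 27305 genes with one. CCGGAAG, an ETS motif, was found in 22 of 46 (47.8%), against 21.9% of tested genes and 12.2% of all genes. AAGATGGC, a YY1 motif, was in 6 (13.0%), against 6.36% of tested genes and 3.52% of all genes, and TGATGNAA, a C/EBP-ATF element, was in 0 of 46, against 2.7% and 4.46%. The 12 genes with the NRF1 letters had a median log2 fold change of -0.31 and the 33 tested genes without it -0.18. With the ETS letters the median was -0.18 (22 genes), and without them -0.23 (23 genes). With the YY1 letters it was -0.15 (6 genes), and without them -0.21 (39 genes). A match is a description of letters, not of binding.

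Many of these genes share a start region with a gene on the other strand. For 17 of the 46 genes with a window (37.0%), a tested gene on the opposite strand starts within 1000 bases upstream or 200 bases inside the start, against 18.6% of 10794 tested genes with a window. In 8 of these pairs both genes were called, 5 in the same direction and 3 in opposite ones. Over all genes tested, 57.8% were called, 28.6% lower and 29.2% higher. Whether paired genes move together more often than other genes was not tested. TTC19 starts 120 bases from ZSWIM7, and both were higher: the log2 fold change of ZSWIM7 was 0.57 ± 0.14 (SE, edgeR adjusted p = 0.000481). SCO1 starts 61 bases from ADPRM, and here SCO1 was lower while ADPRM was higher, at 0.91 ± 0.22 (SE, edgeR adjusted p = 0.000359). UQCRH starts 82 bases from LRRC41, which was higher at 0.52 ± 0.06 (SE, edgeR adjusted p = 9.25e-10), while UQCRH was lower. ATP5MK was lower while PDCD11, 151 bases away, was higher at 0.10 ± 0.04 (SE, edgeR adjusted p = 0.0225). ATP5F1A and HAUS1, ATP5PB and WDR77, ATP5PD and KCTD2, and COX15 and CUTC were lower in both genes of the pair. ATP5PD overlaps KCTD2, which held 2377 counts over the TR-107 libraries and 3411 over the DMSO libraries. The part of shared reads was not tested. ATP5PF starts 68 bases from GABPA, which encodes a subunit of the ETS factor GABP. GABPA had a log2 fold change of -0.16 and was not called (edgeR adjusted p = 0.0809). These genes also overlap, and the part of reads they share was not tested.

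In complex III, 9 of the 10 genes (subunits and cytochrome c) were lower, none was higher, and UQCR11 was not called. The share called lower was 90.0%, against 28.6% of all genes tested, of which 29.2% were called higher. The median log2 fold change was -0.25, and the summed level was 1493 ± 21.9 CPM in TR-107 libraries and 1833 ± 9.2 CPM in DMSO libraries (SD, n = 3 each). The furthest lower was UQCR10, a small subunit of the membrane part. UQCR10 had 41.4, 37.3 and 38.8 CPM in TR-107 libraries, against 62.0, 67.8 and 57.4 CPM in DMSO libraries. Every TR-107 library was well below every DMSO library, by a log2 fold change of -0.67 (SE 0.07, adjusted p = 2.29e-10 by edgeR). UQCRFS1, the Rieske iron-sulfur protein that takes electrons from ubiquinol and is built in last, had 102, 91.5 and 102 CPM in TR-107 libraries, against 145, 148 and 152 CPM in DMSO libraries. The TR-107 libraries again lay together below the DMSO libraries, by a log2 fold change of -0.59 (SE 0.05, adjusted p = 3.06e-13 by edgeR). CYCS, cytochrome c itself, which also starts apoptosis when it leaves the mitochondrion, had 253, 266 and 239 CPM in TR-107 libraries, against 340.5, 333 and 353 CPM in DMSO libraries. No library overlapped between groups, and the difference was a log2 fold change of -0.44 (SE 0.04, adjusted p = 8.57e-12 by edgeR).

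At the other end of complex III stood a hinge protein, a core protein and a small subunit. UQCRH, the acidic hinge protein that helps dock cytochrome c, had 158, 166 and 173 CPM in TR-107 libraries, against 189, 187 and 181 CPM in DMSO libraries. The groups did not overlap but lay close, at a log2 fold change of -0.16 (SE 0.05, adjusted p = 0.00251 by edgeR). UQCRC2, a core protein on the matrix side, had 153, 174 and 162 CPM in TR-107 libraries, against 191, 177 and 173 CPM in DMSO libraries. Here the groups overlapped, since the second TR-107 library lay above the third DMSO library, and the gene was still called, at a log2 fold change of -0.14 (SE 0.05, adjusted p = 0.0114 by edgeR). That call was lost without TR-107 replicate 1 (log2 fold change -0.10, edgeR adjusted p = 0.106) and without DMSO replicate 1 (-0.11, adjusted p = 0.0938). UQCR11, the smallest subunit, had 101, 98.4 and 77.6 CPM in TR-107 libraries, against 92.3, 95.2 and 92.9 CPM in DMSO libraries. The third TR-107 library was below all others and the other TR-107 libraries were above all DMSO libraries, and the log2 fold change was -0.02 ± 0.07 (SE, edgeR adjusted p = 0.824, approximate 95% interval -0.16 to 0.12). The remaining called genes were CYC1, the heme protein cytochrome c1, at -0.35, and UQCRQ, UQCRB and UQCRC1, the other core protein, at -0.26, -0.25 and -0.17, each with every TR-107 library below every DMSO library.

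**Figure D3:**
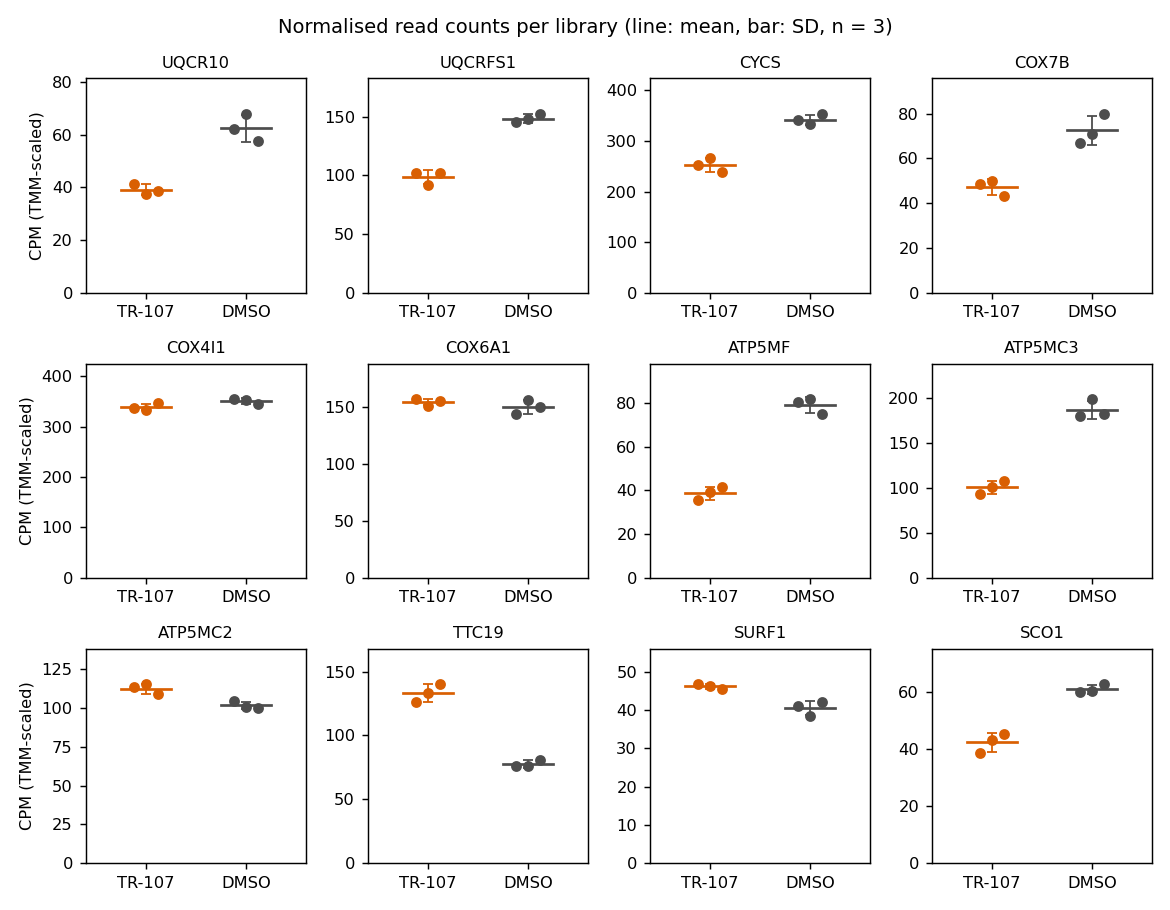
TMM-scaled read counts (CPM) of 12 genes in each library, TR-107 left and DMSO right; points are libraries, the line is the mean and the bar the SD (n = 3). The groups stand apart in 10 of the panels and overlap for COX4I1 and COX6A1.

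In complex IV, 4 of the 11 nuclear subunits were lower, none was higher and 7 were not called, with a median log2 fold change of -0.09. The share called lower, 36.4%, was near the 28.6% of all genes tested, of which 29.2% were called higher. The summed level was 1390 ± 18.5 CPM in TR-107 libraries and 1485 ± 2.03 CPM in DMSO libraries (SD, n = 3 each), a ratio of 0.936. The 4 lower genes were COX7B, COX6B1, COX7C and COX5A. COX7B, a small membrane subunit encoded on the X chromosome, had 48.7, 50.1 and 43.3 CPM in TR-107 libraries, against 66.8, 71.1 and 79.8 CPM in DMSO libraries. It stood apart from the other subunits, with the groups far from overlap and a log2 fold change of -0.62 (SE 0.07, adjusted p = 8.61e-10 by edgeR). COX6B1, which faces the intermembrane space and links the enzymes of the dimer, had 83.7, 74.5 and 77.9 CPM in TR-107 libraries, against 91.5, 100.3 and 101 CPM in DMSO libraries. TR-107 libraries were all below DMSO libraries, by a log2 fold change of -0.31 (SE 0.06, adjusted p = 1.59e-05 by edgeR). COX7C, another small membrane subunit, had 144, 144 and 142 CPM in TR-107 libraries, against 173, 157 and 163 CPM in DMSO libraries. The TR-107 values nearly coincided and lay below all DMSO values, by a log2 fold change of -0.19 (SE 0.05, adjusted p = 0.000526 by edgeR). COX5A, an early-built subunit on the matrix side, was lower at -0.12 ± 0.05 (SE, edgeR adjusted p = 0.03), with no overlap; its call was lost without TR-107 replicate 1 (adjusted p = 0.0888), TR-107 replicate 3 (adjusted p = 0.0658) or DMSO replicate 1 (adjusted p = 0.0766), at -0.11 to -0.12.

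The subunits at the upper end of the fold changes in complex IV differed little between groups. COX6A1, a regulatory subunit at the dimer contact, had 157, 151 and 156 CPM in TR-107 libraries, against 144, 156 and 150.2 CPM in DMSO libraries. The groups overlapped, and the log2 fold change was 0.04 ± 0.05 (SE, edgeR adjusted p = 0.466, approximate 95% interval -0.05 to 0.13). COX6C, a small membrane subunit, had 85.6, 89.0 and 94.6 CPM in TR-107 libraries, against 85.1, 87.3 and 93.4 CPM in DMSO libraries. These values were intermixed, at 0.02 ± 0.06 (SE, edgeR adjusted p = 0.802, interval -0.09 to 0.13). COX8A, the smallest subunit, had 176, 173 and 156 CPM in TR-107 libraries, against 170.0, 170.3 and 160.4 CPM in DMSO libraries. No group was consistently above the other, at 0.01 ± 0.05 (SE, edgeR adjusted p = 0.855, interval -0.08 to 0.11). The sign of all 3 turned under scaling by library size alone, to -0.02, -0.05 and -0.05. COX4I1, the largest nuclear subunit and the site where ATP is known to inhibit the enzyme, was at -0.05 ± 0.04 (SE, edgeR adjusted p = 0.298), and COX5B, COX7A2 and NDUFA4 were at -0.08, -0.09 and -0.11. With library size alone these 4 were called lower, at -0.11 (edgeR adjusted p = 0.00864), -0.14 (0.0287), -0.15 (0.014) and -0.17 (0.0292). Without TR-107 replicate 3, NDUFA4 was at -0.019 (edgeR adjusted p = 0.818). Scaling by library size alone moved the median of all genes by -0.06.

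In complex V, 15 of the 17 tested genes were lower, ATP5MC2 was higher and ATP5PO was not called. The share called lower was 88.2%, against 28.6% of all genes tested, of which 29.2% were called higher. All 4 tested subunits of the F1 head were lower. ATP5F1A and ATP5F1B, the alpha and beta subunits that form the catalytic ring, were at -0.43 ± 0.04 (SE, edgeR adjusted p = 7.4e-13) and -0.26 ± 0.04 (SE, edgeR adjusted p = 2.78e-08). ATP5F1C, the gamma subunit that turns inside the ring, was at -0.41 ± 0.05 (SE, edgeR adjusted p = 1.3e-09), and ATP5F1D, the delta subunit at its foot, at -0.26 ± 0.05 (SE, edgeR adjusted p = 8.3e-06). None of the 4 had a library that overlapped with the other group, and 30.9% of all genes tested lay wholly below in the same way. The summed level of the F1 genes was 1646 ± 17.8 CPM in TR-107 libraries and 2055 ± 17.7 CPM in DMSO libraries (SD, n = 3 each), a ratio of 0.801. ATP5F1E, the epsilon subunit, had only 6 to 10 counts per library and was not tested. Its locus overlaps a read-through gene, SLMO2-ATP5E, which had 0 counts, and TUBB1, and how reads of overlapping genes were assigned is not given in the sources.

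The stalk and membrane subunits held the furthest lower genes of the whole set. ATP5MF, the f subunit at the base of the membrane part, had 35.6, 39.2 and 41.6 CPM in TR-107 libraries, against 80.7, 81.8 and 75.1 CPM in DMSO libraries. The fitted TR-107 level was 0.491 times that of DMSO, without overlap, with a log2 fold change of -1.03 (SE 0.07, adjusted p = 1.7e-16 by edgeR). ATP5MF (chr7:99458195-99466167) overlaps the read-through gene ATP5MF-PTCD1, which had no count in any library. ATP5ME, the e subunit, which with ATP5MG shapes the dimer and the membrane, was at -0.54 ± 0.09 (SE, edgeR adjusted p = 1.05e-06), and ATP5MK, the k subunit, at -0.37 ± 0.05 (SE, edgeR adjusted p = 1.05e-07), both without overlap. ATP5PB, the b subunit of the peripheral stalk, was at -0.34 ± 0.05 (SE, edgeR adjusted p = 1.89e-08), ATP5MJ, a small membrane subunit, at -0.33, and the stalk subunits ATP5PD and ATP5PF at -0.21 each. ATP5IF1, which blocks ATP breakdown by the enzyme when the membrane potential is low, was at -0.23 ± 0.07 (SE, edgeR adjusted p = 0.00752). The call of ATP5PF was lost without DMSO replicate 1 (-0.17, edgeR adjusted p = 0.0733) and that of ATP5IF1 without DMSO replicate 2 (-0.17, adjusted p = 0.0712).

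Smaller differences were seen for the g subunit and for OSCP. ATP5MG, the g subunit, had 91.5, 83.6 and 82.9 CPM in TR-107 libraries, against 101, 96.0 and 96.3 CPM in DMSO libraries. All TR-107 libraries lay below all DMSO libraries, by a log2 fold change of -0.18 (SE 0.06, adjusted p = 0.00477 by edgeR). ATP5PO, known as OSCP, joins the peripheral stalk to the F1 head and had 108, 129.5 and 137 CPM in TR-107 libraries, against 133, 132 and 142 CPM in DMSO libraries. The first TR-107 library was far below the rest, the second just below the DMSO libraries and the third within their range, at -0.12 ± 0.07 (SE, edgeR adjusted p = 0.137). It was called lower without TR-107 replicate 3 (-0.19, edgeR adjusted p = 0.00939) and with no filter on low counts (-0.12, adjusted p = 0.0416), while without TR-107 replicate 1 it was at -0.022 (adjusted p = 0.768). Over the 13 stalk, membrane and inhibitor genes the summed level was 1102 ± 24.6 CPM in TR-107 libraries and 1410 ± 27.2 CPM in DMSO libraries (SD, n = 3 each), a ratio of 0.782.

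The 3 c-subunit genes differed in direction. ATP5MC3 had 92.7, 101 and 107 CPM in TR-107 libraries, against 179.6, 198 and 181 CPM in DMSO libraries. TR-107 libraries were far below DMSO libraries, with a log2 fold change of -0.89 (SE 0.05, adjusted p = 3.3e-18 by edgeR). ATP5MC1 had 74.4, 72.3 and 69.4 CPM in TR-107 libraries, against 102, 113 and 101 CPM in DMSO libraries. It too was lower in every TR-107 library, by a log2 fold change of -0.55 (SE 0.06, adjusted p = 9.45e-11 by edgeR). ATP5MC2 had 113, 115 and 109 CPM in TR-107 libraries, against 104, 101 and 100.4 CPM in DMSO libraries. Here every TR-107 library was above every DMSO library, by a small amount, a log2 fold change of 0.15 (SE 0.05, adjusted p = 0.0153 by edgeR). The higher call of ATP5MC2 was lost without TR-107 replicate 2 (0.13, edgeR adjusted p = 0.0661), without DMSO replicate 2 (0.13, adjusted p = 0.0616), without DMSO replicate 3 (0.13, adjusted p = 0.0613) and with library size alone (0.08, adjusted p = 0.179), and its sign was the same under every alternative run.

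Summed over the 3 genes, c-subunit transcripts were 285.01 ± 4.21 CPM in TR-107 libraries and 393 ± 15.9 CPM in DMSO libraries (SD, n = 3 each). ATP5MC2 made up 40.4%, 39.9% and 38.2% of that sum in TR-107 libraries, against 27.1%, 24.4% and 26.2% in DMSO libraries. ATP5MC3 made up 33.1%, 35.0% and 37.5% in TR-107 libraries, against 46.5%, 48.2% and 47.4% in DMSO libraries. For neither gene did the groups overlap. The share of ATP5MC1 was 25.3% ± 1.14 in TR-107 libraries and 26.7% ± 0.586 in DMSO libraries (SD, n = 3 each). Levels per coding length gave nearly the same shares, 39.2% ± 1.16 in TR-107 libraries and 25.8% ± 1.34 in DMSO libraries for ATP5MC2. By that measure ATP5MC2 had the highest level of the 3 in each TR-107 library and ATP5MC3 in each DMSO library. No test was run on these shares. The sequences above share runs of at most 17 bases, and how reads that map to several places were counted is not given in the sources. Annotated pseudogenes number 8 for ATP5MC1, 5 for ATP5MC2 and 0 for ATP5MC3, and their part in these shares was not tested.

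**Figure D4:**
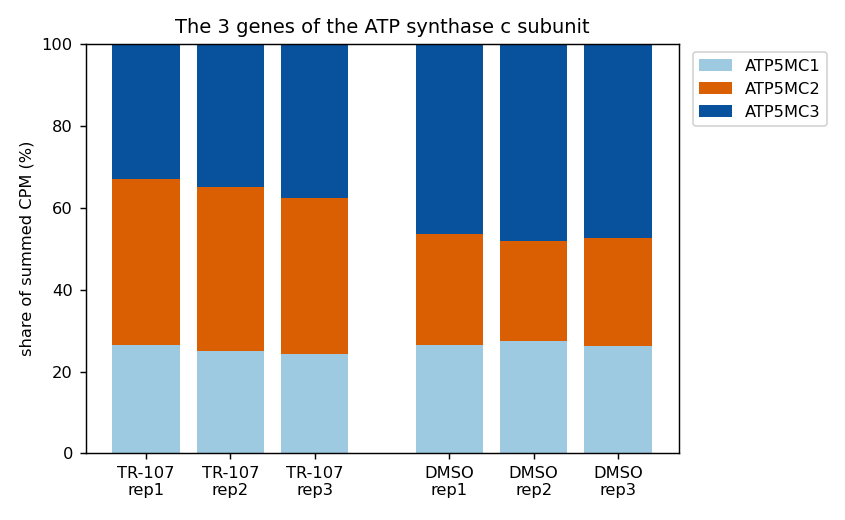
Share (in %) of each c-subunit gene in the summed CPM of ATP5MC1, ATP5MC2 and ATP5MC3, per library, TR-107 left and DMSO right. ATP5MC2 averages 39.5% in TR-107 libraries and 25.9% in DMSO libraries, and ATP5MC3 averages 35.2% in TR-107 libraries and 47.4% in DMSO libraries.

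Of the 5 complex III assembly factors, TTC19 was higher, UQCC1 and BCS1L were lower, and LYRM7 and UQCC2 were not called. Over all genes tested, 28.6% were called lower and 29.2% higher. TTC19, which binds complex III and helps clear fragments of the Rieske protein left after it is built in, had 126, 133 and 140.0 CPM in TR-107 libraries, against 75.8, 75.8 and 80.8 CPM in DMSO libraries. The TR-107 libraries lay far above the DMSO libraries, with a log2 fold change of 0.78 (SE 0.05, adjusted p = 2.83e-16 by edgeR). Its gene (chr17:15999824-16045015) overlaps NCOR1, which held 4193 counts over the TR-107 libraries and 3128 over the DMSO libraries, and the part of shared reads was not tested. UQCC2, which acts with UQCC1 on newly made cytochrome b, had 23.0, 26.2 and 24.3 CPM in TR-107 libraries, against 20.2, 24.7 and 18.2 CPM in DMSO libraries. The groups overlapped at the second DMSO library, with 0.22 ± 0.11 (SE, edgeR adjusted p = 0.0783), and without that library UQCC2 was called higher (0.35, edgeR adjusted p = 0.0136). Without DMSO replicate 3 it was at 0.11 (edgeR adjusted p = 0.433). UQCC1 was lower, at -0.30 ± 0.08 (SE, edgeR adjusted p = 0.000754).

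The Rieske protein's other helpers had smaller fold changes. BCS1L, the translocase that passes the folded Rieske protein across the membrane, was lower at -0.20 ± 0.08 (SE, edgeR adjusted p = 0.032). Its call was lost without TR-107 replicate 1 (-0.16, edgeR adjusted p = 0.138), TR-107 replicate 3 (-0.20, adjusted p = 0.0598) or DMSO replicate 1 (-0.13, adjusted p = 0.222), and with DESeq2 (-0.21, adjusted p = 0.0592). LYRM7, the chaperone that holds the Rieske protein in the matrix, was at 0.03 ± 0.08 (SE, edgeR adjusted p = 0.771, approximate 95% interval -0.13 to 0.19), with overlapping groups and a sign that turned with library size alone (-0.03). The summed level of the 5 factors, to which TTC19 gave more than any other, was 277 ± 11.1 CPM in TR-107 libraries and 232 ± 4.63 CPM in DMSO libraries (SD, n = 3 each).

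Of the 10 tested complex IV assembly factors, 6 were lower, SURF1 was higher and 3 were not called (COX10, COX20 and COA5). The share called lower was 60.0%, against 28.6% of all genes tested, of which 29.2% were called higher. The largest fall was in SCO1, which delivers copper to the subunit COX2 encoded in the mitochondrion. SCO1 had 38.7, 43.2 and 45.4 CPM in TR-107 libraries, against 60.0, 60.4 and 62.8 CPM in DMSO libraries. TR-107 libraries all lay below DMSO libraries, by a log2 fold change of -0.52 (SE 0.07, adjusted p = 4.13e-08 by edgeR). COX17, the chaperone that hands copper to SCO1 and COX11, had 28.8, 26.6 and 28.6 CPM in TR-107 libraries, against 34.5, 37.3 and 32.5 CPM in DMSO libraries. Again the groups did not overlap, at a log2 fold change of -0.31 (SE 0.09, adjusted p = 0.00258 by edgeR). COA3, which binds newly made COX1, had 18.2, 14.9 and 17.4 CPM in TR-107 libraries, against 21.5, 18.4 and 23.1 CPM in DMSO libraries. The groups were close, with every TR-107 library still below every DMSO library, at a log2 fold change of -0.32 (SE 0.12, adjusted p = 0.0167 by edgeR). The call of COA3 was lost without TR-107 replicate 2 (-0.24, edgeR adjusted p = 0.104), DMSO replicate 1 (-0.31, adjusted p = 0.052) or DMSO replicate 3 (-0.25, adjusted p = 0.114).

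SURF1, an early factor in which mutations cause a form of Leigh syndrome, had 46.8, 46.4 and 45.6 CPM in TR-107 libraries, against 41.1, 38.6 and 42.1 CPM in DMSO libraries. The TR-107 values were tightly grouped above the DMSO values, with a log2 fold change of 0.19 (SE 0.08, adjusted p = 0.0308 by edgeR). That call did not hold without TR-107 replicate 1 (0.18, edgeR adjusted p = 0.0696), TR-107 replicate 2 (0.19, adjusted p = 0.0642), DMSO replicate 1 (0.19, adjusted p = 0.0762) or DMSO replicate 2 (0.14, adjusted p = 0.16), nor with DESeq2 (0.18, adjusted p = 0.0707), no filter on low counts (0.18, adjusted p = 0.054) or library size alone (0.12, adjusted p = 0.16). COX20, a chaperone of COX2, had 1.58, 0.493 and 0.979 CPM in TR-107 libraries, against 0.375, 0.524 and 0.455 CPM in DMSO libraries. These were the lowest levels of any tested gene of the set, from 7 counts in a library. A TR-107 library lay inside the DMSO range, and COX20 was not called, at 1.15 ± 0.59 (SE, edgeR adjusted p = 0.0952). SCO2, a relative of SCO1 with a role in the same copper site, had 1 to 24 counts per library and was not tested.

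The remaining complex IV factors include COX15, COX10, COX11 and COX18. COX15, which makes heme A, was at -0.21 ± 0.05 (SE, edgeR adjusted p = 0.000679), and COX10, which makes its precursor heme O, at -0.13 ± 0.08 (SE, edgeR adjusted p = 0.168), with no overlap between groups in either gene. COX11, which serves the copper site of COX1, was lower at -0.19 ± 0.08 (SE, edgeR adjusted p = 0.0262), and COX18, which inserts COX2 into the membrane, at -0.25 ± 0.11 (SE, edgeR adjusted p = 0.0441). The call of COX18 was lost without each of the 6 libraries in turn (-0.23 to -0.28, edgeR adjusted p of 0.0562 to 0.113), and that of COX11 without TR-107 replicate 1 (-0.14, adjusted p = 0.143), DMSO replicate 1 (-0.19, adjusted p = 0.0616) and DMSO replicate 3 (-0.17, adjusted p = 0.088). COA5 was at -0.18 ± 0.13 (SE, edgeR adjusted p = 0.246). COX11 overlaps TOM1L1, which held 4563 counts over the TR-107 libraries and 2827 over the DMSO libraries, and the part of shared reads was not tested.

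The partner subunits encoded in the mitochondrion did not move together. MT-CYB, cytochrome b of complex III, had 2544, 2907 and 3012 CPM in TR-107 libraries, against 1762, 1543 and 1581 CPM in DMSO libraries. It was higher in every TR-107 library, by a log2 fold change of 0.79 (SE 0.08, adjusted p = 0.000134 by edgeR), whereas the nuclear genes of the same complex were lower or not called. MT-CO2, the copper-bearing COX2 of complex IV, had 1925, 2044 and 2074 CPM in TR-107 libraries, against 3921, 3530.3 and 3905 CPM in DMSO libraries. TR-107 libraries were far below DMSO libraries, by a log2 fold change of -0.91 (SE 0.04, adjusted p = 2.57e-22 by edgeR). MT-CO1 and MT-CO3, the other core subunits of complex IV, were lower at -0.33 ± 0.05 (SE, edgeR adjusted p = 0.000121) and -0.47 ± 0.10 (SE, edgeR adjusted p = 0.0112).

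Complex V has a pair of mitochondrially encoded subunits, whose genes overlap. MT-ATP8, the A6L subunit, had 78.4, 105 and 96.8 CPM in TR-107 libraries, against 62.4, 61.5 and 62.5 CPM in DMSO libraries. All TR-107 libraries lay above all DMSO libraries, by a log2 fold change of 0.59 (SE 0.08, adjusted p = 4.11e-07 by edgeR). MT-ATP6, the a subunit that forms the proton path beside the c ring, was at -0.26 ± 0.09 (SE, edgeR adjusted p = 0.0597) and was not called, although no TR-107 library reached the DMSO range. The level of MT-ATP6 was 2366 ± 244 CPM in TR-107 libraries and 2839 ± 173 CPM in DMSO libraries (SD, n = 3 each), far above that of MT-ATP8. How reads of these overlapping genes were assigned is not given in the sources, and the part of shared reads was not tested. Libraries were made from poly(A)-enriched RNA, in which the amount of a mitochondrial transcript and its tailing cannot be told apart.

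**Figure D5:**
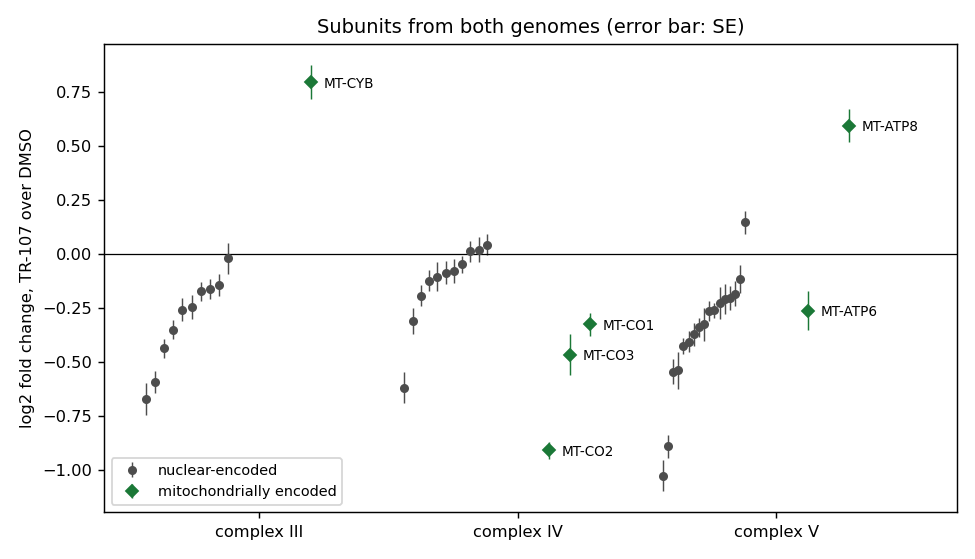
Log2 fold change, TR-107 over DMSO, with SE for nuclear-encoded genes (grey; cytochrome c is drawn with complex III and ATP5IF1 with complex V) and mitochondrially encoded subunits (green) of each complex. MT-CYB at 0.79 and MT-ATP8 at 0.59 lie above every nuclear gene of their complex, and MT-CO2 at -0.91 below every nuclear gene of complex IV.

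Further assembly factors of complexes III, IV and V, which are not among the 55 genes, were mixed. Of 26 tested, 11 were lower, 2 were higher and 13 were not called, with a median log2 fold change of -0.25. The shares called were 42.3% lower and 7.69% higher, against 28.6% and 29.2% of all genes tested. TMEM177, which steadies COX20 while COX2 is made, was lower at -0.81 ± 0.10 (SE, edgeR adjusted p = 8.72e-09), with 17.2 ± 0.729 CPM in TR-107 libraries and 30.2 ± 3.54 CPM in DMSO libraries (SD, n = 3 each). COA7 was lower at -0.66 ± 0.08 (SE, edgeR adjusted p = 4.88e-10), TMEM70, which helps build the c ring, at -0.64 ± 0.07 (SE, edgeR adjusted p = 9.82e-11), and UQCC3, a partner of UQCC1 and UQCC2, at -0.51 ± 0.09 (SE, edgeR adjusted p = 1.26e-05). TACO1, an activator of COX1 translation, was lower at -0.52 ± 0.07 (SE, edgeR adjusted p = 6.63e-08), and HCCS, which attaches heme to cytochrome c and cytochrome c1, at -0.42 ± 0.09 (SE, edgeR adjusted p = 0.000183). The 2 higher genes were COA8, at 0.35 ± 0.10 (SE, edgeR adjusted p = 0.00314), and COX19, at 0.36 ± 0.11 (SE, edgeR adjusted p = 0.00566).

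Among 10 isoforms and supercomplex factors, 6 were too low to test, among them the tissue-specific COX6A2, COX7B2 and COX8C, which had no count. COX7A2L, which links complexes III and IV in supercomplexes, had 94.4, 98.9 and 102 CPM in TR-107 libraries, against 59.6, 59.1 and 57.5 CPM in DMSO libraries. Every TR-107 library was far above every DMSO library, by a log2 fold change of 0.75 (SE 0.06, adjusted p = 1.78e-14 by edgeR). HIGD1A was lower at -0.19 ± 0.06 (SE, edgeR adjusted p = 0.00473), and HIGD2A and UQCRHL were not called.

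For comparison, the other respiratory complexes had these values. Of 35 tested nuclear subunits of complex I, 17 were lower, 2 higher and 16 not called, with a median log2 fold change of -0.15. Of 8 complex II genes, the 4 subunits SDHA, SDHB, SDHC and SDHD were lower, the assembly factor SDHAF4 was higher and 3 were not called. SDHA, the flavoprotein, was at -0.58 ± 0.05 (SE, edgeR adjusted p = 1.79e-13). The share called lower was 67.9% for the 53 genes, 48.6% for complex I, whose list holds subunits alone, and 28.6% for all genes tested. Among the 53 it was 73.7% for the 38 subunit, carrier and inhibitor genes and 53.3% for the 15 assembly factors. These differences were not tested.

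Subunit transcripts were more abundant per length than those of assembly factors in both groups. Divided by transcript length in kb, the median level of the 39 subunit, carrier and inhibitor genes was 123 CPM per kb in TR-107 libraries and 139 CPM per kb in DMSO libraries. For the 16 assembly factors it was 16.7 CPM per kb in TR-107 libraries and 17.9 CPM per kb in DMSO libraries. By coding length the medians were 266 CPM per kb in TR-107 libraries and 324 CPM per kb in DMSO libraries for subunits, and 51.9 CPM per kb in TR-107 libraries and 57.7 CPM per kb in DMSO libraries for assembly factors. The highest gene in DMSO libraries depended on the length used: ATP5F1B by transcript length (605 CPM per kb) and CYCS by coding length (1086 CPM per kb). COX17 was highest among the assembly factors by either length.

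The tested genes were well covered, with a median over genes of 1890 counts per library and a highest count of 27238. COX20 was the only tested gene of the set below 10 CPM in all libraries. Of the 55 genes, 17 overlap another gene row of the files, and 32 have annotated pseudogenes, 176 in all, of which CYCS has 45. Reads of such copies may have been split or left out, since the counting settings are not given in these sources.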

How the data were processed

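The samples were 6 RNA-seq libraries of HCT116 cells, 3 given 50 nM TR-107 and 3 given 0.1% DMSO for 24 h, grouped by their titles. The authors deposited raw read counts per gene; per the submitters' processing notes they used FastQC, Trimmomatic, HISAT2, featureCounts and the build hg38. Versions, the annotation, and the strand, overlap and multi-mapping settings are not given in these sources. Libraries held 17264039 to 23708135 counts over 28395 gene IDs, of which 27745 matched a symbol in RefSeq's GRCh38.p14 table, the same assembly as hg38.

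Groups were compared with the quasi-likelihood test of edgeR 4.0.16 in R 4.3.3 (TMM scaling, filterByExpr, robust fit, group alone), fitted on all 13767 genes that passed the filter and adjusted over them by Benjamini-Hochberg at 0.05. The test was also run on simulated counts in which a small part of the genes changed, in equal numbers up and down. In the real data 57.8% of genes tested were called. The simulation therefore does not cover scaling or false calls when so many genes differ. CPM are TMM-scaled, fold changes are TR-107 over DMSO, and intervals are log2 fold change with a normal 95% width. The common biological coefficient of variation was 0.0739, and replicate libraries differed by 4 to 6.21 in chi-square per degree of freedom, so each counted as 1 replicate.

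Lengths and coding sequences came from GENCODE 29 (GRCh38), promoters from RefSeq. Values per library are printed for the 3 largest and 3 smallest fold changes in complexes III, IV and V and among the assembly factors, for all genes called higher, for the ATP5MC genes and for CYCS; the other values given per library were added after the values were seen. The genes and lists were chosen with earlier results of these data known. Alternatives were other scalings (relative log expression, upper quartile, library size alone, mitochondrial genes left out), no filter or at least 1 CPM in 3 libraries, DESeq2 1.42.0, limma-voom (limma 3.58.1), a block for the replicate number, an adjusted p of 0.01, and leaving out each library.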

Additional observations from a re-analysis of the deposited data

How the results depend on the processing

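Of 39 called genes, 29 kept their call under all 15 alternatives to the test, scaling, filter or libraries, and no called gene changed sign. Among the genes of the set tested in each setting, those called lower numbered 30 to 35 without 1 library (36 in the main test). They numbered 42 with library size alone and 30 at an adjusted p of 0.01. Leaving out a library changed which genes passed the filter, so these counts can hold genes not tested in the main test. Of the 39 genes called in the main test, 31 to 36 kept their call without 1 library. Over all genes, 4537 were called lower and 3484 higher with library size alone (3941 and 4015 in the main test), and 24.6% lower and 24.3% higher at an adjusted p of 0.01. Genes called higher numbered 1 with library size alone, 1 at an adjusted p of 0.01, and 1 to 3 without 1 library (3 in the main test); TTC19 was called in each. Signs turned only for uncalled genes. With library size alone COX6A1 was at -0.022, COX6C at -0.046, COX8A at -0.052 and LYRM7 at -0.034, and COX10 was called lower (-0.20, edgeR adjusted p = 0.0367). Without 1 library, COX8A ranged over -0.025 to 0.066, COX6C over -0.021 to 0.052, LYRM7 over -0.033 to 0.087 and UQCR11 over -0.089 to 0.094. COX18 lost its call with no filter on low counts (edgeR adjusted p = 0.062) and with DESeq2 (adjusted p = 0.0693). Same-numbered libraries of the groups did not deviate together (correlations of -0.031, -0.018 and 0.049), and libraries did not all correlate best with their own number, so the numbers were not taken as pairs. With the replicate block, 36 genes were called lower and 3 higher, with COX18 lost (-0.25, edgeR adjusted p = 0.0505) and ATP5PO gained (-0.12, adjusted p = 0.0456). ATP5F1E and SCO2 had too few counts for the main test, and COX20 for a narrow interval.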

Other observations

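NDUFA4L2 (COXFA4L2 in RefSeq), a relative of the complex IV subunit NDUFA4 that is known to be induced by low oxygen, was outside every list and is named after its values were seen. It had 48, 72 and 68 counts in TR-107 libraries, against 4, 0 and 4 counts in DMSO libraries, or 2.80, 3.95 and 3.17 CPM in TR-107 libraries and 0.214, 0 and 0.165 CPM in DMSO libraries. Every TR-107 library lay above every DMSO library. No fold change or p is given, since the gene passed the filter on low counts through the TR-107 libraries. The third relative, C15orf48 (COXFA4L3 in RefSeq), had no count in TR-107 libraries and 1, 5 and 3 counts in DMSO libraries, and was not tested.

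Of the factors whose motifs were searched, also named after their values were seen, transcripts of NRF1 were lower, with 29.5 ± 2.37 CPM in TR-107 libraries and 36.2 ± 2.79 CPM in DMSO libraries (SD, n = 3 each), and the log2 fold change was -0.29 ± 0.09 (SE, edgeR adjusted p = 0.00481). YY1 was lower as well, with 133 ± 10.6 CPM in TR-107 libraries and 173 ± 7.78 CPM in DMSO libraries (SD, n = 3 each), at -0.37 ± 0.05 (SE, edgeR adjusted p = 5.49e-08). GABPA, of the ETS factor GABP, was not called, at -0.16 ± 0.08 (SE, edgeR adjusted p = 0.0809). No value is given here for C/EBP or ATF factors. Over all genes tested, 28.6% were called lower and 29.2% higher.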
